A study of Mus musculus with 3 samples.

Results

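Osteopontin (Spp1), insulin-like growth factor 1 (Igf1) and 8 other genes of the disease-associated microglia programme, Gpnmb, Lgals3, Itgax, Cst7, Axl, Csf1, Cd9 and Cd63, were followed in cells sorted from mouse brain. The members were chosen by gene symbol, and 10 of 10 were found among the 32285 features of the files. Single cells had been sorted from the brain as CD45int CD11b+, a sort that takes in microglia, at day 4, and the 3′ ends of their transcripts were sequenced. All mice carried an Apoe knockout, the controls included, and the allele is not named in the sources used here. The groups were sham induction with PBS, NMOSD induction with a control peptide, and NMOSD induction with APOE130-149, where NMOSD usually stands for neuromyelitis optica spectrum disorder, in which antibodies attack astrocytes. How the disease was induced is not described in the sources used here. With 1 library per group, made from 4 pooled mice, differences between groups have no replicate check and were not tested. The control peptide and sham libraries differ in both induction and injected substance, and these cannot be told apart. Values are given in the order sham, control peptide, APOE130-149 unless stated otherwise.

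Disease-associated microglia are a state that microglia, the resident macrophages of the brain, take up around damaged tissue, amyloid and degenerating myelin. In this state, genes of lipid handling, lysosomes and secreted factors go up and homeostatic genes such as P2ry12 and Tmem119 go down, a switch that depends in part on the receptor Trem2 and in which Apoe itself is usually one of the induced genes. Spp1 and Igf1 encode secreted ligands. Gpnmb, Itgax, Axl, Cd9 and Cd63 encode membrane proteins, Lgals3 a sugar-binding lectin, Cst7 an inhibitor of lysosomal proteases, and Csf1 a growth factor that microglia need for survival.

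UMIs of Spp1, Igf1 and Lgals3 fell in partly shared cells, and Gpnmb correlated with Lgals3 mainly in sham, as described further on. Because of this, the sequences just upstream of these 4 members are shown. They are the RefSeq promoter windows, 250 bases before to 50 after the gene start on the GRCm38.p6 build, for Spp1 (chr5:104434861-104435160, plus strand), Igf1 (chr10:87860861-87861160, plus strand), Gpnmb (chr6:49036268-49036567, plus strand) and Lgals3 (chr14:47373610-47373909, plus strand). On GRCm38 the genes span chr5:104435118-104441050 (Spp1), chr10:87858265-87937042 (Igf1), chr6:49036546-49070929 (Gpnmb) and chr14:47367751-47386160 (Lgals3), so the Igf1 and Lgals3 windows lie within the annotated gene, at a RefSeq start. Capitals mark letters that match TGANTCA, a form of the AP-1 site, CANGTG, an E-box form read by the MiT/TFE family of lysosomal regulators, or GGAAGT, a core of PU.1 and other ETS factors.
Spp1: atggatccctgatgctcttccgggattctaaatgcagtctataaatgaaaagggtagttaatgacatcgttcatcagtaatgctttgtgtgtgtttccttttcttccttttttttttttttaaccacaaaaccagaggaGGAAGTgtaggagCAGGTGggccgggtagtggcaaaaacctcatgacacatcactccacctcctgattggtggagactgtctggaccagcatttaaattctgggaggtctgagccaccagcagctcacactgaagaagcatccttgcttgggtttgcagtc
Igf1: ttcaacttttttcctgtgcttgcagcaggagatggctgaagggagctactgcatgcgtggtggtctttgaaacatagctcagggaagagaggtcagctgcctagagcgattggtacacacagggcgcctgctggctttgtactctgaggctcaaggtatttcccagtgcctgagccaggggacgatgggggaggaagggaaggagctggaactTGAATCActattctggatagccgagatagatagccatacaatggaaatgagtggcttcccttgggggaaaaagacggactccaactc
Gpnmb: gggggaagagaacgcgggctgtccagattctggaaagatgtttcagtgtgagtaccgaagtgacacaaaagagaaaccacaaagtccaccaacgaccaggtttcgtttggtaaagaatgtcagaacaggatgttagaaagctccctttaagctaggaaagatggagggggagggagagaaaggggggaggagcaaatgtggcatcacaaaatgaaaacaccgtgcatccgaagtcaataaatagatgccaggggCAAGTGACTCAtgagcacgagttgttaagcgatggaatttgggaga
Lgals3: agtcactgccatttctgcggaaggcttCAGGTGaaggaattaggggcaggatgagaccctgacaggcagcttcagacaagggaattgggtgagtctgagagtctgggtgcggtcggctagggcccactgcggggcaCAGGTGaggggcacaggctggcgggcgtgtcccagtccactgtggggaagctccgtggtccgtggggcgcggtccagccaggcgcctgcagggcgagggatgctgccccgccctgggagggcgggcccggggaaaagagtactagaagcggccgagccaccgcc
Both strands were searched. The Spp1 window holds an E-box next to a GGAAGT, the Igf1 window an AP-1 match, the Gpnmb window an E-box that overlaps an AP-1 match, and the Lgals3 window a pair of E-boxes. Over the 11 windows of the 10 members (Spp1 has a second start), TGANTCA was found in 4, CANGTG in 5 and GGAAGT in 4. Among all 32851 RefSeq windows of the same length the shares were 7.81%, 44.9% and 23.8%. A match describes letters and is no evidence of binding.

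The 3 libraries held 4674, 5306 and 2175 barcodes, and 4231, 5011 and 2025 cells passed the filters, with medians of 7124, 7848 and 9991 unique molecular identifiers (UMIs, counted transcripts) per cell. Of all pairs of libraries, 12 cell barcodes were shared. Cells were assigned by marker genes, none of them a member. Microglia-gated cells made up 90.0%, 88.2% and 86.1% of the cells (3809, 4419 and 1743 cells). P2ry12 and Tmem119, which were not used in the gate, stood at 2638, 2423 and 2629 CPM and at 1173, 1188 and 1200 CPM in them, where CPM is UMIs of a gene per 1000000 UMIs of the same cells. Border-associated macrophages, which line the meninges and vessels, numbered 23, 20 and 21, monocytes 36, 55 and 34, and neutrophils 47, 83 and 50. Apoe stood at 80.6, 113 and 125 CPM in microglia-gated cells, and since a 3′ tag from outside a deleted part checks nothing, this does not test the genotype. Brackets hold exact 95% intervals (Poisson for levels, conditional for ratios, Clopper-Pearson for shares), which cover counting error only.

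Among the ligands, Spp1 and Igf1 were higher in microglia-gated cells of both NMOSD libraries than in sham, and Csf1 was higher with APOE130-149 than in sham. Spp1, a secreted matrix protein that binds integrins and CD44, had 456, 2814 and 1880 UMIs, or 15.4 CPM [14.0 to 16.9], 54.3 CPM [52.3 to 56.4] and 69.1 CPM [66.0 to 72.3]. Igf1, a growth factor for neurons and oligodendrocytes, had 119, 588 and 390 UMIs, or 4.02 CPM [3.33 to 4.81], 11.4 CPM [10.5 to 12.3] and 14.3 CPM [12.9 to 15.8]. For both ligands sham was lowest and APOE130-149 highest, and the counting intervals of the 3 libraries did not overlap. The control peptide level was 3.53-fold [3.20 to 3.90] that of sham for Spp1 and 2.83-fold [2.32 to 3.47] for Igf1. The APOE130-149 level was 1.27-fold [1.20 to 1.35] and 1.26-fold [1.11 to 1.44] that of the control peptide. Csf1, a ligand of the receptor Csf1r, stood at 35.6 CPM [33.5 to 37.8], 41.8 CPM [40.1 to 43.6] and 55.1 CPM [52.3 to 58.0]. Its APOE130-149 level was 1.32-fold [1.23 to 1.41] that of the control peptide and 1.55-fold [1.43 to 1.68] that of sham.

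RNA of some other cells in the microglia-gated cells was also lowest in sham. Choroid plexus or ependymal markers summed to 1.18, 93.1 and 68.6 CPM (4, 3 and 3 of 4 genes detected, Ccdc153 at 0 in the NMOSD libraries), most of it Ttr in those libraries, and 2 haemoglobin genes to 0.439, 20.5 and 20.4 CPM. The monocyte and macrophage gene Fn1 stood at 2.77, 31.5 and 29.2 CPM. Their part in the Spp1 and Igf1 levels was not tested.

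The differences in the ligands depended in part on cells that held many UMIs of all genes. Cells above 2 times the median UMIs of their library, called deep cells here, were 10.1%, 18.3% and 20.7% of microglia-gated cells and held 52.0%, 89.0% and 76.8% of their Spp1 UMIs. In deep cells Spp1 stood at 28.9, 99.6 and 100.1 CPM, and in the other cells at 10.2, 11.6 and 34.1 CPM. Outside the deep cells, then, sham and the control peptide library had like levels (1.13-fold), which ends the call for that comparison, while APOE130-149 stood 2.94-fold above the control peptide. That last value leans on 1 cell, which held 169 of the 437 Spp1 UMIs. Igf1 stood at 9.51, 19.8 and 21.4 CPM in deep cells and at 1.91, 3.38 and 6.40 CPM in the others, lowest in sham in both classes, with all 3 libraries below 10 CPM outside the deep cells. For Csf1 the deep cells had 43.5, 47.2 and 67.5 CPM and the others 32.6, 36.8 and 41.1 CPM, and without deep cells the ratio of APOE130-149 to sham was 1.26. Whether deep barcodes held more than 1 cell was not tested. With the 0.25% of cells that held most Spp1 UMIs left out of each library instead, the Spp1 ratio of control peptide to sham was 3.76.

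**Figure D1:**
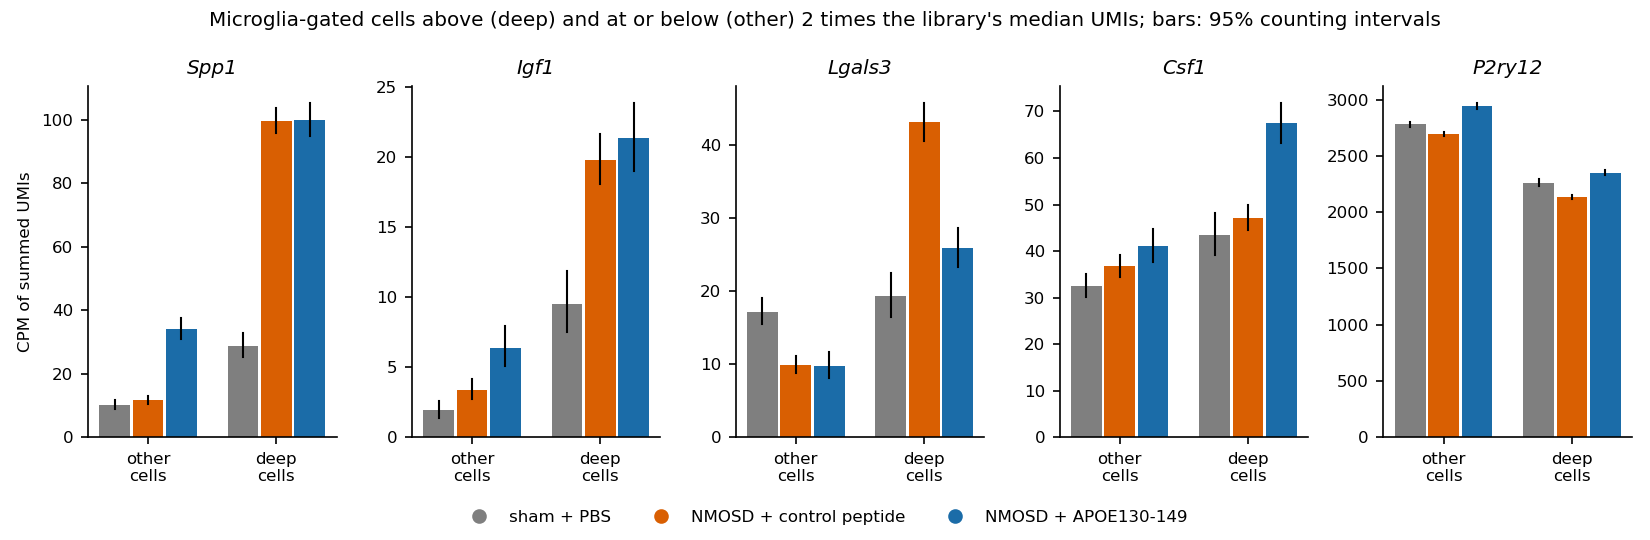
Levels of Spp1, Igf1, Lgals3, Csf1 and the homeostatic gene P2ry12 (CPM of summed UMIs, each panel with its own scale from 0) in microglia-gated cells at or below 2 times (other cells) and above 2 times (deep cells) the library's median UMIs, 1 bar per library with its 95% counting interval. Spp1 in the other cells was 10.2 CPM in sham and 11.6 CPM with the control peptide, against 28.9 and 99.6 CPM in the deep cells, while P2ry12 was lower in the deep cells of each library.

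The lectin and the membrane proteins had no member past the fold limit at 10 CPM or more. Lgals3, the lectin galectin-3, which binds damaged lysosomes and is also made by blood myeloid cells, stood at 17.7 CPM [16.2 to 19.3], 26.0 CPM [24.6 to 27.4] and 18.3 CPM [16.7 to 19.97], so the control peptide library stood above the other two. Its control peptide level was 1.47-fold [1.32 to 1.62] that of sham, and the APOE130-149 level was 0.704 of the control peptide level [0.634 to 0.781]. The direction against sham turned with the weight given to deep cells: outside them Lgals3 stood at 17.1, 9.87 and 9.76 CPM, a ratio of 0.576 for the control peptide against sham, and in deep cells at 19.3, 43.1 and 25.9 CPM. Gpnmb, a lysosomal glycoprotein, had only 63, 221 and 84 UMIs, or 2.13, 4.27 and 3.09 CPM, below the 10 CPM asked for. In sham 46 of its UMIs, and with the control peptide 147, lay in 1 cell, so no order of the libraries was read from it.

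Itgax, the integrin chain CD11c, stood at 25.7 CPM [23.9 to 27.6], 23.2 CPM [21.9 to 24.6] and 23.2 CPM [21.4 to 25.1], with overlapping intervals and a control peptide to sham ratio of 0.904 [0.825 to 0.992]. Axl, a receptor for Gas6, which bridges it to dying cells, stood at 38.5 CPM [36.3 to 40.8], 43.5 CPM [41.7 to 45.3] and 38.0 CPM [35.7 to 40.4], highest with the control peptide. The tetraspanins Cd9 and Cd63, membrane organisers of vesicles, were near level, with control peptide to sham ratios of 1.12 for each and APOE130-149 to control peptide ratios of 0.935 and 1.0025. Cst7, cystatin F, which restrains the cathepsins C and L, stood at 55.5 CPM [52.8 to 58.2], 68.4 CPM [66.2 to 70.7] and 79.4 CPM [76.1 to 82.8], with APOE130-149 at 1.43-fold [1.34 to 1.53] the sham level. Cst7 and Csf1 thus had the library order of Spp1 and Igf1, with smaller ratios of control peptide to sham, and Itgax did not.

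A member was counted as higher or lower at 1.5-fold or more with at least 10 CPM in the higher library, which 9 of 10 members reached in each comparison. For the control peptide against sham 2 of 9 were higher, Spp1 and Igf1, against a background of 1.63% of the 8487 genes tested, and 0 were lower, against 0.872%. For APOE130-149 against the control peptide 0 were higher, against 0.477% of 8378 genes, and 0 were lower, against 0.0955%. Against sham, APOE130-149 had 3 of 9 higher, Spp1, Igf1 and Csf1, against 1.88% of 8510 genes, and 0 lower, against 0.87%. This last comparison shares both of its libraries with the others. The median log2 ratio of the tested members was 0.23 for the control peptide against sham, where that of all genes was -0.07, and 0.16 for APOE130-149 against sham, where that of all genes was -0.05. For APOE130-149 against the control peptide the members' median was 0.0036 and that of all genes 0.013.

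**Figure D2:**
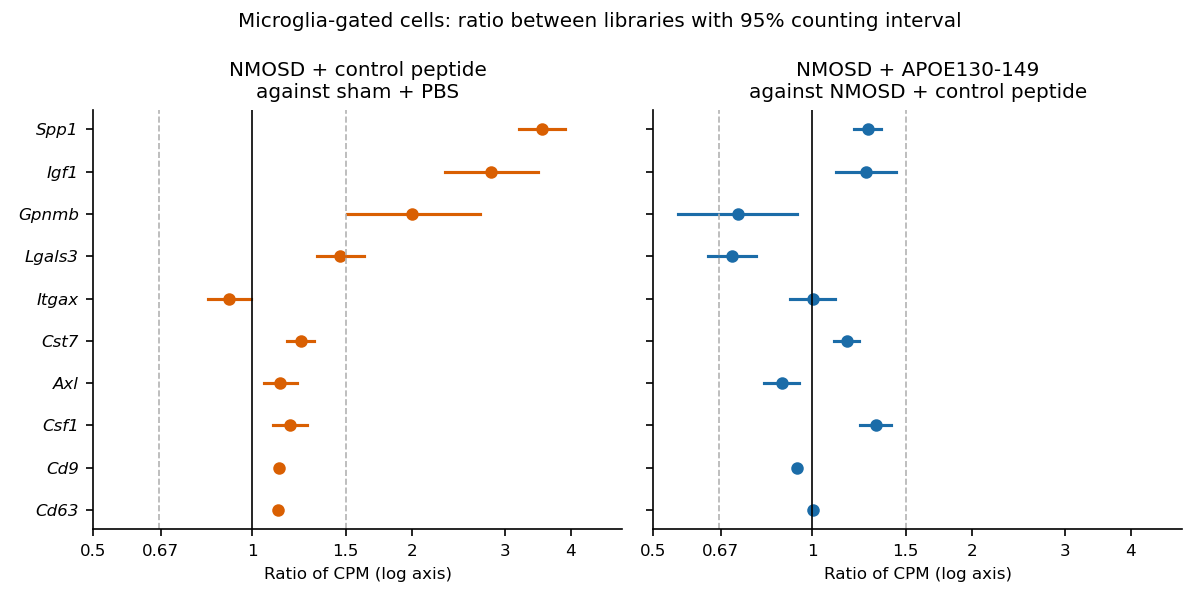
Ratio of CPM in microglia-gated cells for each of the 10 genes (log axis, points with 95% counting intervals), control peptide against sham on the left and APOE130-149 against control peptide on the right, with dashed lines at 1.5-fold either way. Spp1 (3.53) and Igf1 (2.83) lie beyond the line on the left, as does Gpnmb (2.01), which stayed below 10 CPM, and on the right all 10 points lie within the lines.

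Levels of the members had different orders across microglia, border-associated macrophages, monocytes and neutrophils, the only types ranked. Cst7, Csf1 and Cd9 were highest in microglia in each library. Cst7 stood in monocytes at 16.3, 30.3 and 18.6 CPM and in neutrophils at 10.98, 20.8 and 8.19 CPM. In the APOE130-149 library its interval in border-associated macrophages, from 5 UMIs, overlapped that of microglia. Cd9 stood at 1795, 2011 and 1880 CPM in microglia, at 650, 578 and 586 CPM in neutrophils and at 190, 200 and 206 CPM in monocytes. Csf1 in border-associated macrophages had 3, 0 and 0 UMIs, too few to set against microglia in sham, where the intervals overlapped.

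Lgals3 was highest in monocytes in each library, at 1808 CPM [1691 to 1931], 2300 CPM [2197 to 2406] and 1929 CPM [1819 to 2044], and neutrophils followed at 793, 538 and 663 CPM. The monocyte gate held 31.2%, 31.9% and 40.5% of all Lgals3 UMIs of the kept cells, and microglia-gated cells, far more numerous, held 18.5%, 22.6% and 17.6%. Neutrophil markers summed to 342, 422 and 884 CPM over 11 of 11 genes in microglia-gated cells, and monocyte markers to 38.9, 84.7 and 70.5 CPM over 9 of 9. Monocyte markers were thus highest with the control peptide, as Lgals3 was. With APOE130-149 these markers stayed above sham, whereas Lgals3 was near the sham level (18.3 against 17.7 CPM). The part of monocyte RNA in the Lgals3 level was not tested.

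Igf1 and Axl were highest in border-associated macrophages in each library. Igf1 stood there at 158 CPM [110 to 219], 270 CPM [192 to 369] and 309 CPM [221 to 420], found in 12 of 23, 9 of 20 and 12 of 21 cells. The intervals of neighbouring libraries overlapped, with a control peptide to sham ratio of 1.71 [1.06 to 2.78]. In sham and control peptide monocytes Igf1 had 0 UMIs, and a count of 3 would have been 6.13 and 3.635 CPM. With APOE130-149 monocytes had 15 Igf1 UMIs (25.3 CPM), all in 1 of 34 cells. Axl stood at 243, 201 and 278 CPM in border-associated macrophages, with overlapping intervals. Cd63 was near level between microglia (664, 741 and 743 CPM) and border-associated macrophages (658, 845 and 1088 CPM) in sham and with the control peptide, and higher in the macrophages with APOE130-149. Itgax had overlapping intervals between monocytes and microglia in each library.

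Because Igf1 was highest in border-associated macrophages, their markers were read in the microglia-gated cells. The list summed to 278, 280 and 321 CPM over 8 of 8 genes, most of it Stab1 (239, 199 and 242 CPM). Mrc1 stood at 18.6, 33.2 and 32.4 CPM, Pf4 at 8.37, 19.3 and 22.7 CPM and F13a1 at 2.53, 9.13 and 8.08 CPM, each lowest in sham as Igf1 was. With microglia-gated cells restricted to those under 0.5 of the marker thresholds of every other type (3397, 4233 and 1666 cells), the Igf1 ratios were 2.83, 1.26 and 3.56 for control peptide to sham, APOE130-149 to control peptide and APOE130-149 to sham, as large as before. The Spp1 ratios were 3.31, 1.13 and 3.75. Under this restriction the Igf1 level of the control peptide library no longer reached 10 CPM. Of cells with 3 or more Igf1 UMIs, 5 of 12, 9 of 59 and 9 of 44 reached 0.5 of the border-associated macrophage threshold. In cells with no Igf1 UMI the shares were 5.43%, 2.00% and 1.87%. The part of border-associated macrophage RNA in the Igf1 levels was not tested.

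Spp1 and Gpnmb in the small types rested on single cells. In border-associated macrophages Spp1 stood at 225, 111 and 7.72 CPM, but the 50 sham UMIs all lay in 1 of 23 cells. Gpnmb there had 51, 1 and 0 UMIs, the 51 again in 1 cell. In monocytes Spp1 stood at 14.3, 54.5 and 343 CPM, and 202 of the 203 UMIs with APOE130-149 lay in 1 of 34 cells. No order of cell types was read for either gene.

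**Figure D3:**
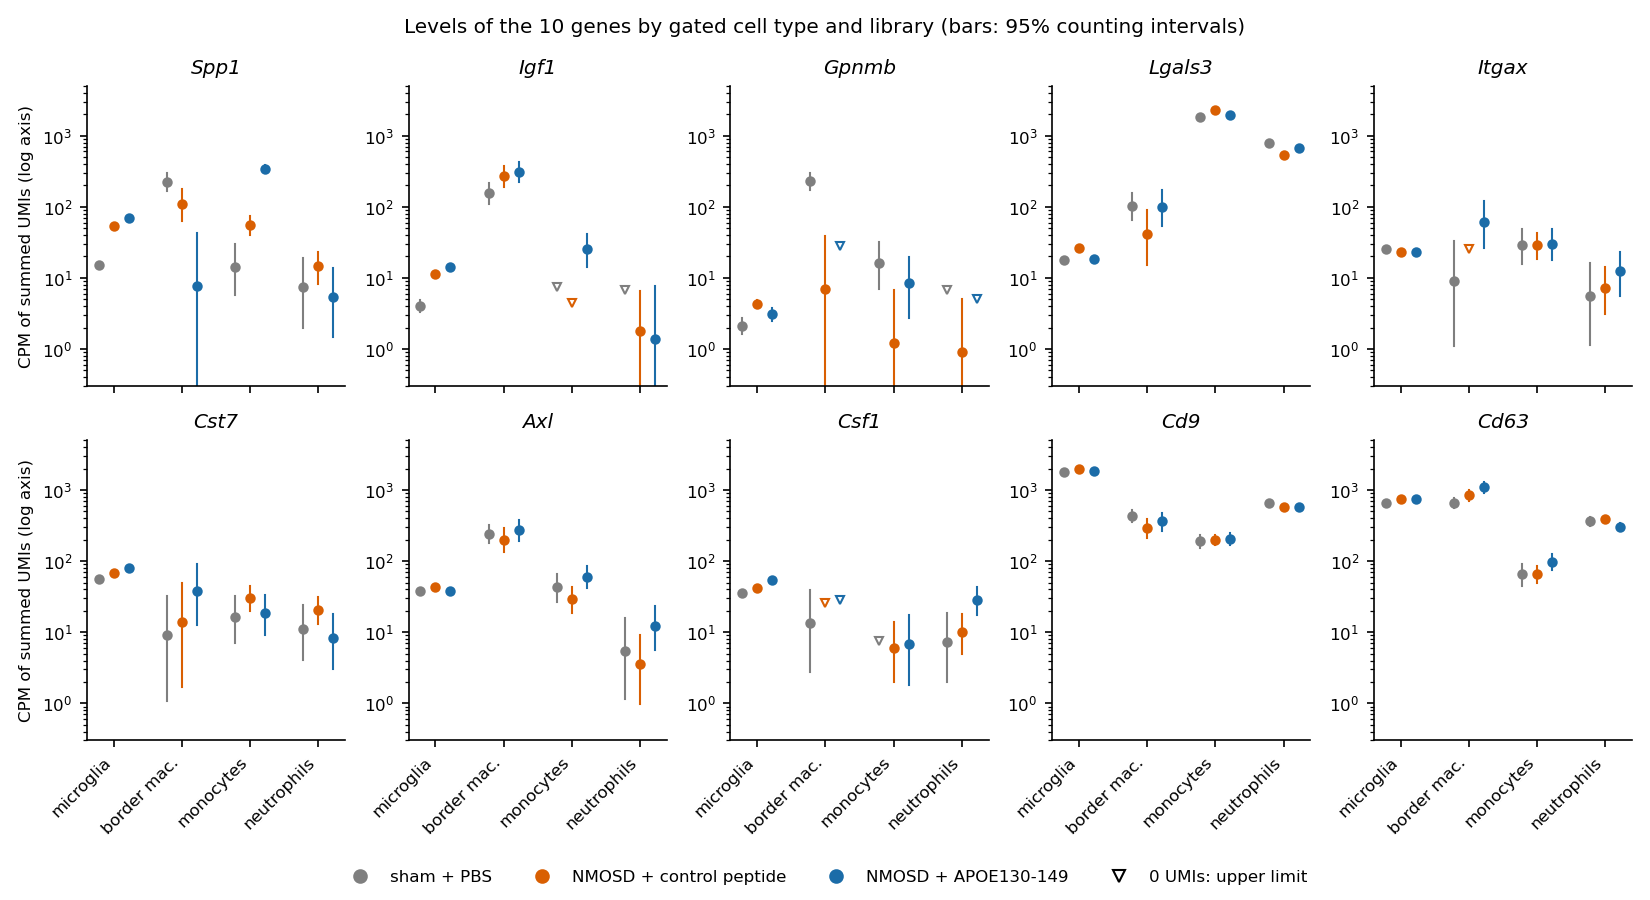
Levels of the 10 genes (CPM of summed UMIs, log axis) in microglia, border-associated macrophages (border mac.), monocytes and neutrophils of each library, with 95% counting intervals and open triangles at the upper limit where no UMI was counted. Lgals3 stood at 1808 to 2300 CPM in monocytes and 17.7 to 26.0 CPM in microglia, while Igf1 stood at 158 to 309 CPM in border-associated macrophages and 4.02 to 14.3 CPM in microglia.

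Cells that no gate took also carried members. These 132, 130 and 71 cells had Spp1 at 344, 489 and 307 CPM and held 31.3%, 16.8% and 8.23% of all Spp1 UMIs, while microglia-gated cells held 59.1%, 77.4% and 80.5%. In sham 191 of the 241 Spp1 UMIs of these cells lay in 1 cell. Gpnmb stood at 136, 228 and 168 CPM in them, which was 43.6%, 52.1% and 53.3% of all its UMIs, and Lgals3 at 1301, 932 and 481 CPM. Cst7 stood at 72.8, 95.1 and 125 CPM and Csf1 at 49.9, 51.9 and 62.3 CPM, both above their levels in microglia-gated cells. The counting intervals overlapped those of microglia for Csf1 in each library and for Cst7 in sham. P2ry12 was low in the cells that no gate took (642, 413 and 436 CPM). The gate would leave out a microglial cell with few microglia markers. With the microglia threshold at 0.5 of its value, the Spp1 ratios were 2.75, 1.22 and 3.35 in the order of comparisons given for the restricted gate.

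Detection per cell was compared after each microglia-gated cell was thinned to 4000 UMIs, which kept 2757, 3969 and 1560 cells and left out 1052, 450 and 183. Spp1 was detected in 2.43% [1.89 to 3.08], 4.08% [3.49 to 4.74] and 5.26% [4.20 to 6.48] of cells, lower in sham than in either NMOSD library, with overlapping intervals of the NMOSD libraries. Without thinning, 139 of 3809, 375 of 4419 and 210 of 1743 cells had a UMI. Igf1 was detected in 0.762% [0.472 to 1.16], 1.66% [1.29 to 2.11] and 2.50% [1.78 to 3.40]. Neutrophils, which give a level for free RNA and numbered 38, 69 and 47 at this depth, showed Spp1 in 0%, 5.80% and 0% (0 of 38 cells allows a share of up to 7.89%), so the control peptide share of microglia did not stand above that level. For Igf1 the neutrophil shares were 0%, 0% and 2.13%, and with APOE130-149 that was close to the microglia share. The small neutrophil numbers limit both readings, whereas the levels in CPM set microglia above neutrophils for both genes in the NMOSD libraries.

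Cst7 was detected in 13.9%, 16.9% and 18.3% of thinned microglia against 2.63%, 4.35% and 2.13% of neutrophils, Csf1 in 10.4%, 11.99% and 13.9% against 5.26%, 2.90% and 2.13%, and Axl in 10.5%, 11.4% and 9.29% against 0%, 1.45% and 2.13%. Itgax was detected in 8.23%, 7.86% and 6.99% of microglia and in 2.63%, 1.45% and 6.38% of neutrophils, close to each other with APOE130-149. Lgals3 was found in 2.87%, 3.58% and 3.40%, and Gpnmb in 0.181%, 0.428% and 0.385%. Cd9 was found in nearly every cell (98.6%, 99.4% and 99.2%) and Cd63 in 81.2%, 87.3% and 85.6%. Neutrophil shares were also high for Cd9 (86.8%, 84.1% and 83.0%), Lgals3 (89.5%, 79.7% and 91.5%) and Cd63 (19 of 38, 51 of 69 and 31 of 47 cells). A UMI of at least 3 of the 10 members was found in 32.4% [30.6 to 34.1], 38.7% [37.2 to 40.2] and 38.9% [36.5 to 41.4] of cells, most of them through Cd9 and Cd63. Of the 8 remaining members, at least 3 were found in 1.70% [1.26 to 2.26], 2.90% [2.40 to 3.47] and 3.08% [2.28 to 4.06]. At least 4 of the 8 were found in 0.544%, 0.579% and 0.577%. Cells with several of the 8 were thus a small class in each library. At a cut of 3 members the share in sham was below those of the NMOSD libraries, and at 4 of the 8 the libraries were near level.

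**Figure D4:**
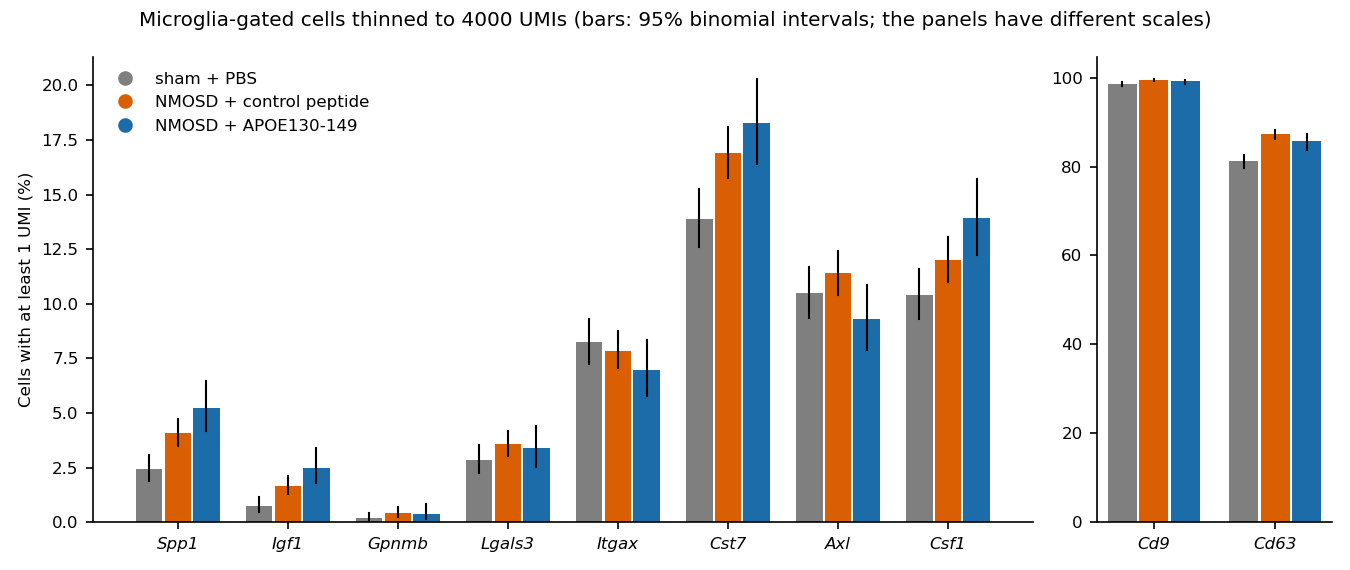
Share of thinned microglia-gated cells with at least 1 UMI of each gene (percent, from 0), 1 bar per library with exact 95% binomial intervals, and a separate scale for Cd9 and Cd63. Spp1 was detected in 2.43%, 4.08% and 5.26% of cells and Cst7 in 13.9%, 16.9% and 18.3%, while Itgax showed overlapping intervals at 8.23%, 7.86% and 6.99%.

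The ligand Spp1 was carried by few cells at high counts. The cells with most Spp1 held 50% of its microglial UMIs in 9, 13 and 8 cells, and the cell with most held 51, 398 and 200. Cells with 5 or more Spp1 UMIs numbered 17, 87 and 55 and held 61.8%, 85.1% and 88.2% of the UMIs. There were 15, 33 and 18 cells just below that limit and 5, 29 and 10 at or just above it. The high cells were deeper than cells with no Spp1 UMI, with medians of 13863, 26355 and 33142 UMIs against 7250, 7528 and 9504. Cst7, Axl, Csf1 and Itgax were spread more evenly, for 50% of the UMIs lay in 150, 224 and 99 cells for Cst7 and in 140, 206 and 98 for Itgax.

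Within the microglia gate, cells with 5 or more Spp1 UMIs differed in other genes from cells with none. These values describe cells chosen by Spp1, which were deeper than the cells with none, and were not tested. Lpl, which splits lipoprotein fats, stood at 576, 525 and 383 CPM in the high cells and at 44.1, 55.0 and 67.0 CPM in cells with none. Lgals1, galectin-1, stood at 241, 204 and 126 CPM against 7.93, 15.2 and 16.3 CPM. Lgals3 stood at 147, 185 and 89.5 CPM against 13.2, 12.5 and 8.95 CPM, and Igf1 at 23.4, 63.4 and 66.9 CPM against 2.71, 5.09 and 6.65 CPM. All 4 of these genes were thus higher in the high cells of each library.

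Smaller differences of the same direction were seen for Cst7 (198, 128 and 140 CPM against 51.0, 56.2 and 66.0 CPM), Axl, Csf1 and Cd63. Itgax stood at 53.6, 20.2 and 25.9 CPM in the high cells against 24.9, 23.1 and 22.4 CPM, so it was higher in the 17 sham cells and near level in the other libraries. The homeostatic genes were lower: P2ry12, a purine receptor, stood at 978, 1497 and 1734 CPM against 2720, 2578 and 2817 CPM, and Tmem119 at 522, 797 and 966 CPM against 1198, 1247 and 1253 CPM. Mki67, a marker of dividing cells, stood at 63.6, 110 and 70.6 CPM against 23.9, 28.0 and 26.8 CPM. The high cells were not matched in depth to the cells with none. In deep cells too, Cst7, Axl, Csf1 and Cd63 were higher and P2ry12 and Tmem119 lower than in the other cells of each library. Cst7, for one, stood there at 87.6, 84.8 and 94.5 CPM against 43.2, 53.0 and 62.4 CPM. The part of depth in the differences of the high cells was not tested.

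Markers of other cells were read in the same high cells. Fn1, a monocyte and macrophage gene, stood at 13.4, 258 and 156 CPM against 2.14, 11.7 and 6.55 CPM, and Mrc1 at 0, 78.3 and 35.5 CPM against 17.8, 27.7 and 27.9 CPM. S100a9 stood at 53.6, 162 and 1930 CPM against 159, 181 and 261 CPM, with 2813 of its 5220 UMIs with APOE130-149 in 1 cell. At least 0.5 of the marker threshold was reached for monocytes by 0 of 17, 10 of 87 and 3 of 55 high cells, for border-associated macrophages by 1, 4 and 3, and for neutrophils by 0, 0 and 2. Most high cells were thus under 0.5 of each threshold, and the part of other cells in the remainder was not tested.

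Which members shared cells was read in the thinned cells. Of cells with an Igf1 UMI, 2 of 21, 18 of 66 and 14 of 39 also had Spp1 (9.52% [1.17 to 30.4], 27.3% [17.0 to 39.6] and 35.9% [21.2 to 52.8]), against 2.43%, 4.08% and 5.26% of all cells. Of cells with Lgals3, 15.2%, 16.9% and 20.8% had Spp1. Igf1 and Lgals3 also met, in 5 of 21, 20 of 66 and 5 of 39 cells with Igf1. Spp1, Igf1 and Lgals3 thus shared cells more often than their overall shares, except that the sham interval for Igf1 with Spp1 includes the overall share. Itgax showed little of this: its share among cells with Spp1 was 1.63, 1.02 and 1.22 times its share among all cells, and for Cst7 the figure was 2.26, 1.86 and 1.80.

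Correlations over the thinned cells gave the same grouping, as means of the 3 libraries for the log of count plus 1. Igf1 and Spp1 correlated at r = 0.21, Spp1 and Lgals3 at 0.20, and Igf1 and Lgals3 at 0.18. Gpnmb and Lgals3 had a mean of 0.18 that leaned on sham, where 5 thinned cells had Gpnmb: r was 0.33 there, and 0.099 and 0.12 in the NMOSD libraries. Cd9 and Cd63 correlated at 0.19 and Cst7 and Cd63 at 0.16. These are low values in sparse counts, from cells that share a library and its free RNA, and are given as a description.

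**Figure D5:**
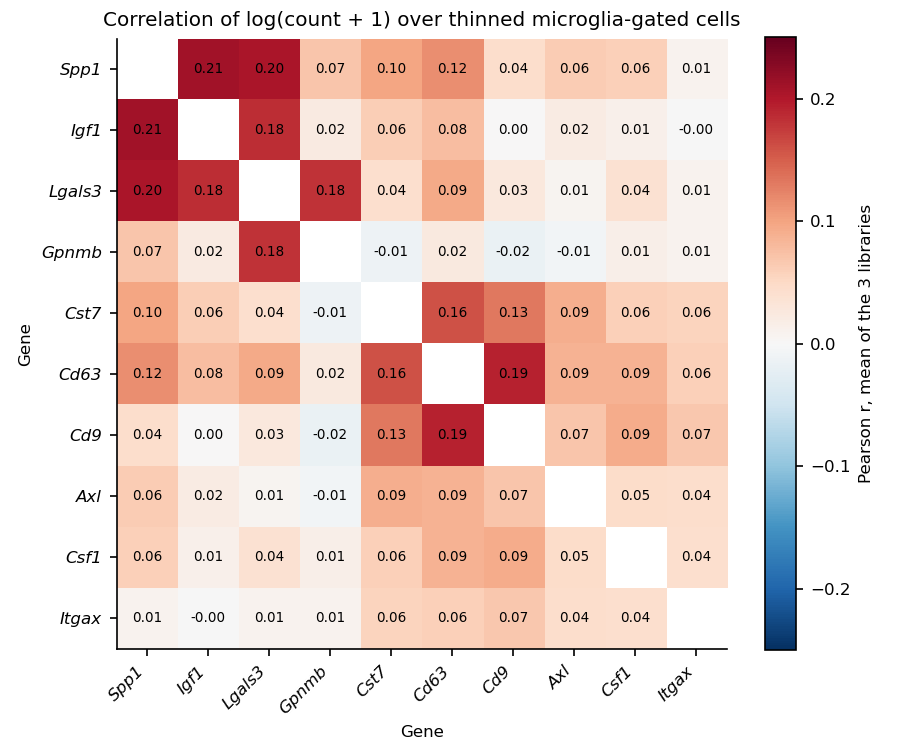
Pearson r between the 10 genes over thinned microglia-gated cells (2757, 3969 and 1560 cells), mean of the 3 libraries, with both axes listing the genes and colour giving r. Spp1, Igf1 and Lgals3 form one group (0.18 to 0.21), Cst7, Cd63 and Cd9 form another (0.13 to 0.19), the 0.18 of Gpnmb and Lgals3 leans on sham (0.33, against 0.099 and 0.12), and Itgax stays at or below 0.07 with every other member.

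Among 10293 genes, those most like each member over the thinned cells, ranked by the mean r of the libraries, differed between these groups. Spp1 was most like Lgals1 (0.25), Tmsb4x (0.23), an actin-binding peptide gene, and Lpl (0.22). Lgals3 was most like Lgals1 (0.21) and Igf1 like Spp1 and Lilrb4a (0.19), an inhibitory receptor gene. For Cst7, Cd9 and Cd63 the lysosomal protease genes Ctsd, Ctsb and Ctsz filled all the places, with Ctsd first at 0.25, 0.33 and 0.34. Axl was most like Cd52 (0.20), and the interferon-induced genes Ifitm3 and Ifi27l2a (0.17 each) followed. Csf1 was most like the chemokine genes Ccl4 (0.15) and Ccl3 (0.13), and Itgax reached only 0.11 with B2m, the light chain of MHC class I.

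Other disease-associated microglia genes were read from a list of 34, of which 33 were in the files and 28 reached 10 CPM. For the control peptide against sham 3 of 28 were higher and 0 lower: Lpl (63.2, 111 and 120 CPM in the 3 libraries), Fabp5, a fatty acid carrier (8.78, 24.6 and 19.9 CPM), and Apoc1, an apolipoprotein (14.6, 21.9 and 20.8 CPM). For APOE130-149 against the control peptide 0 of 28 passed in either direction. Against sham, APOE130-149 had 4 of 28 higher, Lpl, Fabp5, Lilrb4a and Apoe, the knocked-out gene, and 0 lower. Over all genes tested, 1.63%, 0.477% and 1.88% were higher in these 3 comparisons, in the same order. The shares of all genes that were lower were 0.872%, 0.0955% and 0.87%. The list's median log2 ratios were 0.12, 0.05 and 0.23 for control peptide to sham, APOE130-149 to control peptide and APOE130-149 to sham, where those of all genes were -0.07, 0.013 and -0.05. Trem2, the receptor through which much of the programme runs, stood at 2515, 2790 and 2714 CPM. Of the 8 homeostatic genes 0 passed in any comparison, and the lowest ratio was that of Cd33, at 0.715 for the control peptide against sham.

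Receptors and partners of the members did not pass the fold rule in microglia-gated cells in any comparison. The counts were 0 of 6 osteopontin receptors that reached 10 CPM and 0 of 4 genes of the Igf1 receptor and binding proteins. Gas6, Pros1 and the relatives of Axl gave 0 of 3. Cystatin F targets and cystatins gave 0 of 6, and other tetraspanins 0 of 7. Of all genes tested, 1.63%, 0.477% and 1.88% were higher and 0.872%, 0.0955% and 0.87% lower. A count of 0 in lists this short is near those shares. For Spp1, the integrin chain Itgb5 stood at 1243, 1247 and 1293 CPM and Itgav at 134, 114 and 111 CPM, while Cd44 stood at 5.50, 6.78 and 8.93 CPM in microglia and at 266, 275 and 267 CPM in monocytes. For Igf1, the receptor Igf1r stood at 56.9, 54.6 and 48.8 CPM. For Csf1, the receptor Csf1r stood at 4229, 3733 and 4358 CPM, and Il34, its second ligand, had 0, 0 and 19 UMIs. The Axl ligand Gas6 had 2962, 6044 and 3589 UMIs, with a control peptide to sham ratio of 1.17 in CPM, the Axl relative Mertk stood at 550, 456 and 473 CPM, and the Cst7 target Ctsc at 532, 562 and 540 CPM. Among 4 other galectin genes, Lgals1 was higher than in sham in both NMOSD libraries, at 14.5, 36.1 and 31.6 CPM.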

How the data were processed

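The 3 deposited matrices hold raw UMI counts, in whole numbers, for each barcode and gene. They were made with cellranger 7.0.1 per the file headers, while Cell Ranger 5.0.1, Seurat 4.3.0 and mm10 are named per the submitters' processing notes. Whether strand or introns were used in counting is not given in the sources used here, so UMIs of Igf1 and Cd9 cannot be told from those of genes overlapping them on the other strand.

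Of 12155 barcodes, the 11267 with 500 or more genes and up to 10% mitochondrial UMIs were kept. Microglia needed at least 100 UMIs per 10000 in 8 marker genes, with 4 of them detected, and no other type's gate. Other gates worked likewise, with microglia markers under 100: 3 markers and 20 UMIs per 10000 for monocytes and border-associated macrophages or 200 for neutrophils, and 2 markers and 5 for T and NK cells, 20 for B lineage and endothelial cells or 50 for choroid plexus. Cells in both were set aside as mixed. Gate thresholds were set after the marker distributions were seen. Doublets were kept and no caller was run. UMIs were summed per library and type and scaled to CPM. A count of 0 was bounded at 3 counts. All features of the files were tested together, with no p-values, since each group had 1 library. The fold rule was tested on simulated counts. Counts plus 1 were logged for correlations, and the 3 genes with the highest mean r were named per member. Alternatives are in the closing section. The members, lists, markers and rules were chosen with earlier results of these data known. Gene names came from the files, and promoter windows from RefSeq (GRCm38.p6). Python 3.11.15 with numpy 2.4.6, scipy 1.17.1, pandas 2.3.3, scanpy 1.11.5, igraph 0.11.9 and matplotlib 3.10.9 was used.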

Additional observations from a re-analysis of the deposited data

Results flagged for a closer look

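Spp1 moved in opposite directions in 2 cell types between the control peptide and sham libraries. Its ratio was 3.53 [3.20 to 3.90] in microglia-gated cells and 0.492 [0.261 to 0.878] in border-associated macrophages. The difference was not tested. All 50 sham UMIs in border-associated macrophages lay in 1 of 23 cells, and 16 UMIs with the control peptide in 3 of 20.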

How the results depend on the processing

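The counts of members past 1.5-fold (2 higher for control peptide against sham, 0 for APOE130-149 against control peptide, 3 for APOE130-149 against sham, 0 lower in each) moved with the cells used. Without cells above 2 times the median UMIs, 0 were higher and 1 lower (Lgals3, 0.576), 1 higher (Spp1), and 1 higher (Spp1) and 1 lower (Lgals3, 0.569), in that order, and Gpnmb for control peptide against sham was 0.303. With a mean over cells in place of sums, they were 1 higher and 1 lower, 1 lower, and 1 higher and 1 lower. Removing the 0.25% of cells with most UMIs of each gene, or the tighter gate, left 1 higher for control peptide against sham, since Igf1, at 3.31-fold and 2.83-fold, came under 10 CPM. Clusters in place of gates, and the looser gate, gave 1 lower for APOE130-149 against control peptide, and a lower fold limit gave 3 higher and 1 lower there. The looser and tighter gates were added after the data were seen.

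Cells with no UMI of any other type's marker were only 156, 135 and 48. In these, 0 were higher and 2 lower, 2 lower, and 0 higher and 4 lower, and 1 member was highest in microglia in place of 3. The share of all genes that passed in so few cells is not given here. Reversed ratios there were Spp1 at 0.0912 (control peptide against sham) and, for APOE130-149 against sham, Spp1 at 0.107, Igf1 at 0 and Csf1 at 0.265. The share with at least 3 members was 28.0%, 35.3% and 0% there, where all thinned cells gave 32.4%, 38.7% and 38.9%. It was 45.1%, 57.4% and 61.8% without thinning, 57.4%, 64.9% and 62.6% at 8000 UMIs, 30.2% in sham at 1000 genes and 5% mitochondrial UMIs, 85.7%, 91.1% and 89.6% for at least 2 members, 8.96%, 11.4% and 12.8% for at least 4, and 1.70%, 2.90% and 3.08% for 3 of 8 members, a choice added later. Of the single-gene ratios and levels, 193 stayed within their counting intervals, 99 moved and 5 reversed. Not every change of direction is among the 5. Without deep cells 1 ratio was counted as reversed, yet Lgals3 and Gpnmb both changed direction for control peptide against sham. The causes were not tested. No paired analysis was possible because each group had 1 library. Gpnmb had 63 to 221 UMIs, and 73.0%, 66.5% and 15.5% of them lay in 1 cell.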
